A study of Raphidocelis subcapitata with 72 samples.

Results

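The comparison described here set cultures of the green alga Raphidocelis subcapitata under the heading nZVI against cultures under the heading neg, both sampled at 4 h, across all genes of a deposited count table. It used 24 of the 72 deposited samples, which are 6 of 17 distinct libraries: 3 libraries headed nZVI and 3 headed neg, each the sum of 4 lane columns. By the labels, the nZVI samples are strain ATCC 22662 in mid-log growth given 100 mg/L of nanoscale zero-valent iron, and the neg samples are the same strain without particles. All cultures grew in high salt medium with CO2-enriched air under constant light. The other groups of the study are cultures given 100 mg/L of magnetite particles (nFe3O4), also sampled at 4 h, and all 3 conditions sampled at 1 h. Each sample is bulk poly(A) RNA of a whole culture, so a shift in the mix of cell states and a shift within each cell cannot be told apart. The design text asks which genes change with each particle at each hour.

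Raphidocelis subcapitata is a free-living freshwater microalga and a standard organism of growth-inhibition tests in ecotoxicology. Zero-valent iron particles have a metallic core that corrodes in water, releasing ferrous iron and consuming oxygen, and ferrous iron can drive the formation of reactive oxygen species. Magnetite is an iron oxide that already holds ferrous and ferric iron and is less reactive. Algae need iron for the photosynthetic electron transport chain, but free iron in excess is damaging to cells. The files give locus identifiers without gene names or products, so no pathway can be named here and no gene can be given a role, nor can genes known to answer to iron be looked up to check the labels.

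The names nZVI and neg did not stand for the same libraries throughout the deposit. Over 49 genes of the authors' regularized log table, each of the 6 libraries of this comparison followed the library of the other name and the same replicate number, with Pearson's r across genes of 0.966 to 0.991. Against the library of its own name, r was -0.585 to 0.359. Genes are not independent replicates, so these values only describe the match. Below, the groups are called nZVI-headed and neg-headed after the count table, whose headings are those of the sample labels. Read by those headings, "higher" below means higher in algae with zero-valent iron than in particle-free algae. Read with the names exchanged, as in the authors' log table and comparison tables, every "higher" means lower in algae with zero-valent iron, and every "lower" means higher. The files do not settle which reading holds. Names were compared here for the libraries of 4 h only, so an exchange at 1 h is assumed wherever 1 h values are read that way.

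The 6 libraries held 28128576 to 40649747 counts, and the 10 most counted genes took 22.8% to 26.3% of a library. Levels are given as CPM, the counts of a gene per 1000000 of the scaled library size; gene lengths are not in the files, so CPM values are compared between libraries and not between genes. The 4 nFe3O4 1 h replicate 2 columns copied a column of replicate 1 and were left out, so that group has 2 libraries. The protocol gives 3 biological replicates per condition but not whether their inocula were separate, so p-values set a difference only against the spread between deposited libraries. In the main fit that spread was estimated over all 17 distinct libraries of the 6 groups. The root mean square log2 difference over 10760 genes was 0.288 to 0.402 between nZVI-headed libraries and 0.265 to 0.378 between neg-headed libraries. Across the headings it was 0.433 to 0.672 over 9 pairs, so every pair across the headings lay further apart than any pair within one. The closest pair across was nZVI-headed replicate 1 and neg-headed replicate 3, and the widest was nZVI-headed replicate 3 and neg-headed replicate 2.

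Rises and falls were similar in number at 4 h, and the large differences were mostly rises under the nZVI heading. Of 11841 genes tested, 2353 (19.9%) passed an adjusted p of 0.05 in edgeR's quasi-likelihood F test, adjusted by Benjamini and Hochberg's method, and 3989 (33.7%) had an unadjusted p below 0.05. Of the called genes, 1241 genes (10.5% of those tested) were higher in nZVI-headed than in neg-headed libraries and 1112 (9.39%) were lower. With size factors by the RLE method in place of TMM the split was 1147 higher and 1221 lower, so neither direction prevailed by number. By size it was uneven. Of 485 genes at least 2-fold apart (4.1%), 303 (2.56%) were higher and 182 (1.54%) lower. At 4-fold or more, 75 genes were higher and 4 were lower, against 74 and 6 with RLE size factors. At 8-fold or more the counts were 24 and 1. Genes with few counts under neg, described below, were not left out of these counts. Of genes averaging at least 1 CPM over both groups, 53 were at least 4-fold higher and 4 at least 4-fold lower. Over the 13 alternative settings, genes at least 4-fold higher numbered 48 to 93 and those at least 4-fold lower 4 to 20. Under the exchanged names, it is the large falls with zero-valent iron that outnumber the large rises.

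Most called differences were small. The median log2 fold change was 0.70 among genes called higher and -0.59 among genes called lower, beside 0.02 over all genes tested, and 1001 of the 2353 called genes changed less than 1.5-fold. The genes with a rise of at least 4-fold had a median of 6.21 CPM in nZVI-headed and 1.04 CPM in neg-headed libraries, and 53 of the 75 averaged at least 1 CPM over both groups. In 10 genes called higher, each neg-headed library held at most 3 counts, and in 2 of them all neg-headed libraries were at 0. The fitted fold changes of these genes depend on the prior count and are not read singly as sizes, though they enter the counts and medians above. No gene called lower had at most 3 counts in every nZVI-headed library.

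The 3 libraries of each heading did not overlap in 2377 genes higher in nZVI-headed libraries (20.1% of genes tested) and in 2343 lower genes (19.8%). Of the called genes, 1203 higher and 1093 lower genes were among them, and the libraries of 57 called genes overlapped. A further 2424 genes separated the groups without passing the test. The number of calls rested partly on nZVI-headed replicate 3: without it 1369 genes were called, 774 higher and 595 lower. Leaving out any of the other 5 libraries gave 1582 to 2273. Lane 1 alone gave 1226 genes, and a test against a fold minimum of 1.5 gave 195, of which 150 were higher and 45 lower.

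**Figure D1:**
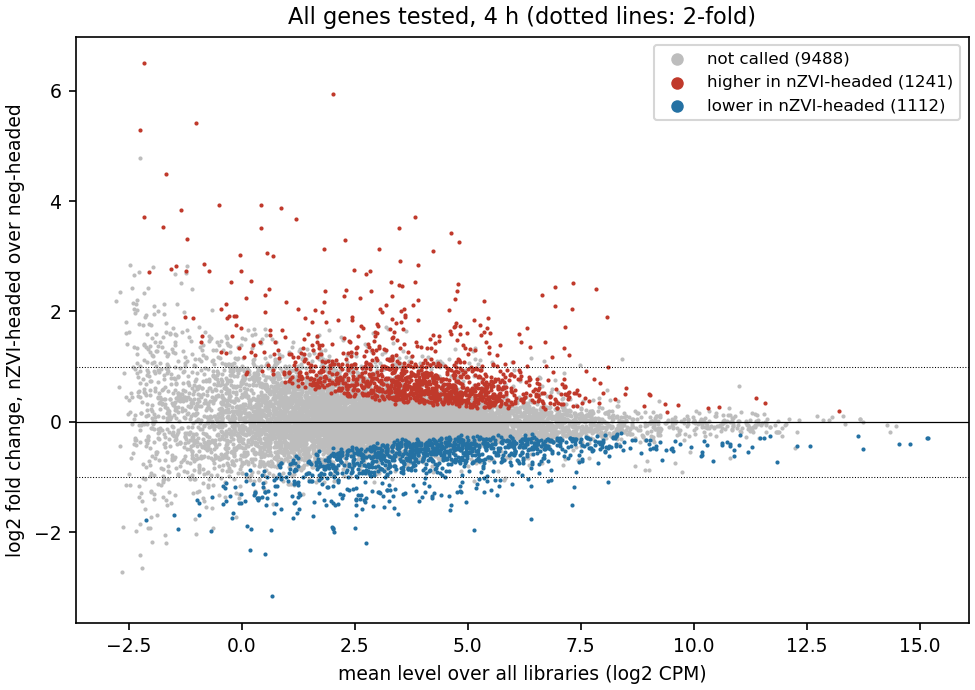
Log2 fold change of nZVI-headed over neg-headed libraries at 4 h (vertical axis) against mean log2 CPM over all libraries (horizontal axis), a point per gene tested. Red points are the 1241 genes called higher, blue points the 1112 called lower and grey points the 9488 not called; the red cloud reaches further from 0 than the blue.

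Rises and falls sat at different depths of the table. Genes called higher had a median of 14.1 CPM over both groups and genes called lower 19.4 CPM, beside 9.09 CPM for all genes tested. Among the 420 genes over 256 CPM, 14 were higher (3.33%) and 74 lower (17.6%). Between 64 and 256 CPM, 95 of 953 genes were higher (9.97%) and 177 lower (18.6%). In the classes from 16 to 64 CPM the order was the other way, with 458 of 2871 genes higher (16%) and 364 lower (12.7%), and from 4 to 16 CPM it was 485 of 4125 higher (11.8%) and 358 lower (8.68%). Of 1073 genes under 1 CPM, 57 were called (5.31%), where the median standard error of the log2 fold change was 0.55, against 0.09 over 256 CPM. CPM classes mix transcript level with transcript length, which cannot be told apart here.

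The genes called lower carried far more counts than those called higher. They took 27.7%, 25.1% and 25.9% of the counts in nZVI-headed replicates 1 to 3, against 31.4%, 32.7% and 31.3% in neg-headed replicates 1 to 3. Genes called higher took 5.60%, 6.13% and 6.34% in the nZVI-headed libraries and 3.88%, 3.77% and 3.91% in the neg-headed ones. The genes were chosen by this contrast, so the separation of the shares is a description and not a test. The fall in share was concentrated: the mean share of the lower genes was 5.57 percentage points below that of neg-headed libraries, and 6 genes made up at least 50% of that. The 10 most counted of the lower genes held 66.5% of the group's share in neg-headed libraries, and their log2 fold changes were modest, from -0.72 to -0.26. In nFe3O4 libraries of 4 h, which entered the fit's estimate of spread but not the fold changes, the lower genes took 26.7% to 28.6% and the higher genes 5.44% to 6.40%.

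The genes named are the ones with the largest difference in mean CPM among genes called, at least 2-fold apart and free of overlap, 2 in each direction. RSUB_01551 had 378, 318 and 375 CPM in nZVI-headed libraries, against 118, 31.4 and 38.0 CPM in neg-headed libraries. The nZVI-headed values were close together and all above the neg-headed ones, of which replicate 1 was the highest. Its log2 fold change was 2.51 (SE 0.84, adjusted p = 0.0452, edgeR). In nFe3O4 libraries of 4 h it ran from 103 to 904 CPM, the widest spread of the groups. RSUB_01221 had 235, 253 and 411 CPM in nZVI-headed libraries, against 100.0, 68.1 and 74.6 CPM in neg-headed libraries, with nZVI-headed replicate 3 the highest. Its log2 fold change was 1.89 (SE 0.23, adjusted p = 7.15e-05, edgeR).

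In the other direction, RSUB_05036 had 324, 216 and 307 CPM in nZVI-headed libraries, against 520, 614 and 664 CPM in neg-headed libraries. Every nZVI-headed value lay below every neg-headed one, as the rule for naming these genes required. The log2 fold change was -1.09 (SE 0.36, adjusted p = 0.0452, edgeR). RSUB_02577 had 105, 101 and 84.8 CPM in nZVI-headed libraries, against 322, 243 and 266 CPM in neg-headed libraries, again without overlap. It differed by -1.51 (SE 0.47, adjusted p = 0.0332, edgeR). RSUB_01221 passed the threshold under all 13 alternatives, with adjusted p from 9.84e-15 to 0.00115 over the tools and settings. The call of RSUB_01551 was lost in edgeR's fit without neg-headed replicate 2 (adjusted p = 0.148) or 3 (0.145), or without nZVI-headed replicate 1 (0.0742), 2 (0.0795) or 3 (0.0928), in a range of 0.00252 to 0.285 over its alternatives. Those of RSUB_05036 and RSUB_02577 were lost in edgeR's fit whichever of the 6 libraries was left out, with adjusted p of 0.0593 to 0.155 and of 0.0542 to 0.107; over all alternatives the ranges were 0.0013 to 0.513 and 1.29e-04 to 0.307. Under the exchanged names, RSUB_01551 and RSUB_01221 would be lower, and RSUB_05036 and RSUB_02577 higher, with zero-valent iron.

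**Figure D2:**
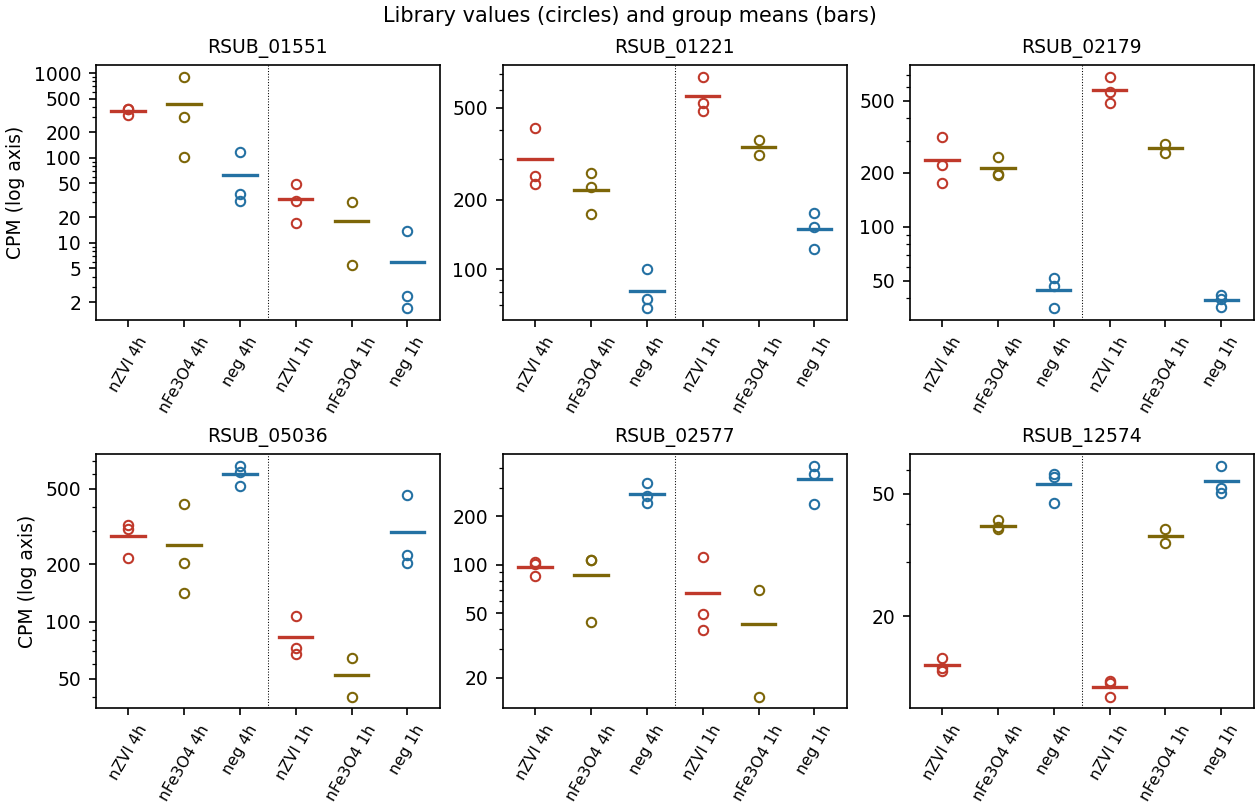
CPM on log axes of 6 named genes in every distinct library (circles) with group means (bars), by count-table heading, 4 h left of 1 h. At 4 h the nZVI-headed circles lie apart from the neg-headed ones in each gene, and only for RSUB_12574 do they also lie apart from all nFe3O4 circles. Lack of overlap was a condition of choice for RSUB_01551, RSUB_01221, RSUB_05036 and RSUB_02577 against neg and for RSUB_12574 against nFe3O4.

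Against nFe3O4 cultures of the same hour few genes were called in the nZVI-headed libraries. In the same edgeR fit 1 gene was called (0.00845% of genes tested), 835 genes (7.05%) had an unadjusted p below 0.05, and DESeq2 called 27. That gene, RSUB_12574, had 13.6, 13.2 and 14.6 CPM in nZVI-headed libraries, against 38.9, 41.1 and 38.3 CPM in nFe3O4 libraries. The neg-headed libraries stood higher still, at 46.7, 58.1 and 56.7 CPM. The log2 fold change of nZVI-headed over nFe3O4 was -1.51 (SE 0.11, adjusted p = 3.20e-06, edgeR), and over its 12 alternatives adjusted p ran from 6.89e-29 to 0.00547. Over neg-headed libraries it was -1.96 (SE 0.11, adjusted p = 4.11e-08, edgeR). The order was the same in the 1 h libraries, at 12.1, 12.3 and 10.9 CPM under nZVI, 38.4 and 34.6 CPM with nFe3O4 and 52.5, 50.4 and 61.9 CPM under neg. RSUB_12574 was therefore set apart under the nZVI heading in all 6 libraries of both hours, with no overlap with any other library. Without nZVI-headed replicate 3, 4 genes were called between nZVI-headed and nFe3O4 libraries. Under the exchanged names, it is the particle-free cultures in which few genes were called against nFe3O4, and RSUB_12574 is lower without particles than with nFe3O4.

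Against the neg-headed libraries, nFe3O4 cultures gave 2720 called genes at 4 h (23% of genes tested), 1459 higher (12.3%) and 1261 lower (10.6%). At least 2-fold apart were 512 (4.32%), of which 294 (2.48%) were higher and 218 (1.84%) lower. These counts stand beside those of the nZVI-headed libraries without a test of their overlap, since both comparisons use the same 3 neg-headed libraries. Under the exchanged names, the 2720 genes are those that differ between nFe3O4 and zero-valent iron. For the 4 h contrast named nZVI over nFe3O4, the authors' deposited table held 5815 genes. For that named nFe3O4 over neg, the authors' deposited table held 1587, so the order of the list lengths was the reverse of that under the count-table headings. With the names exchanged, those 1587 genes belong to nFe3O4 against the nZVI-headed libraries, where edgeR called 1 gene here and DESeq2 27. The few calls between these groups were thus not shared by the deposited list. What sets the counts apart was not tested. Side by side, the log2 fold changes over neg-headed libraries were 2.51 under nZVI and 2.81 with nFe3O4 for RSUB_01551, and 1.89 and 1.45 for RSUB_01221. They were -1.09 and -1.24 for RSUB_05036, and -1.51 and -1.69 for RSUB_02577. None of the 4 differed between nZVI-headed and nFe3O4 libraries by edgeR (adjusted p of 0.722 to 0.958), which does not show that they were alike. Between nZVI-headed and nFe3O4 libraries the root mean square log2 difference was 0.299 to 0.654, and among nFe3O4 libraries 0.318 to 0.597. Biological variation within a group, as edgeR's common coefficient, was 0.161 under nZVI, 0.246 with nFe3O4 and 0.148 under neg. The wider spread with nFe3O4 came with replicate 3, which lay 0.525 and 0.597 from the other nFe3O4 libraries, themselves 0.318 apart. The nZVI-headed libraries lay 0.299 to 0.368 from nFe3O4 replicates 1 and 2 and 0.482 to 0.654 from replicate 3. Without nFe3O4 replicate 3 the test still called 1 gene against the nZVI-headed libraries.

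**Figure D3:**
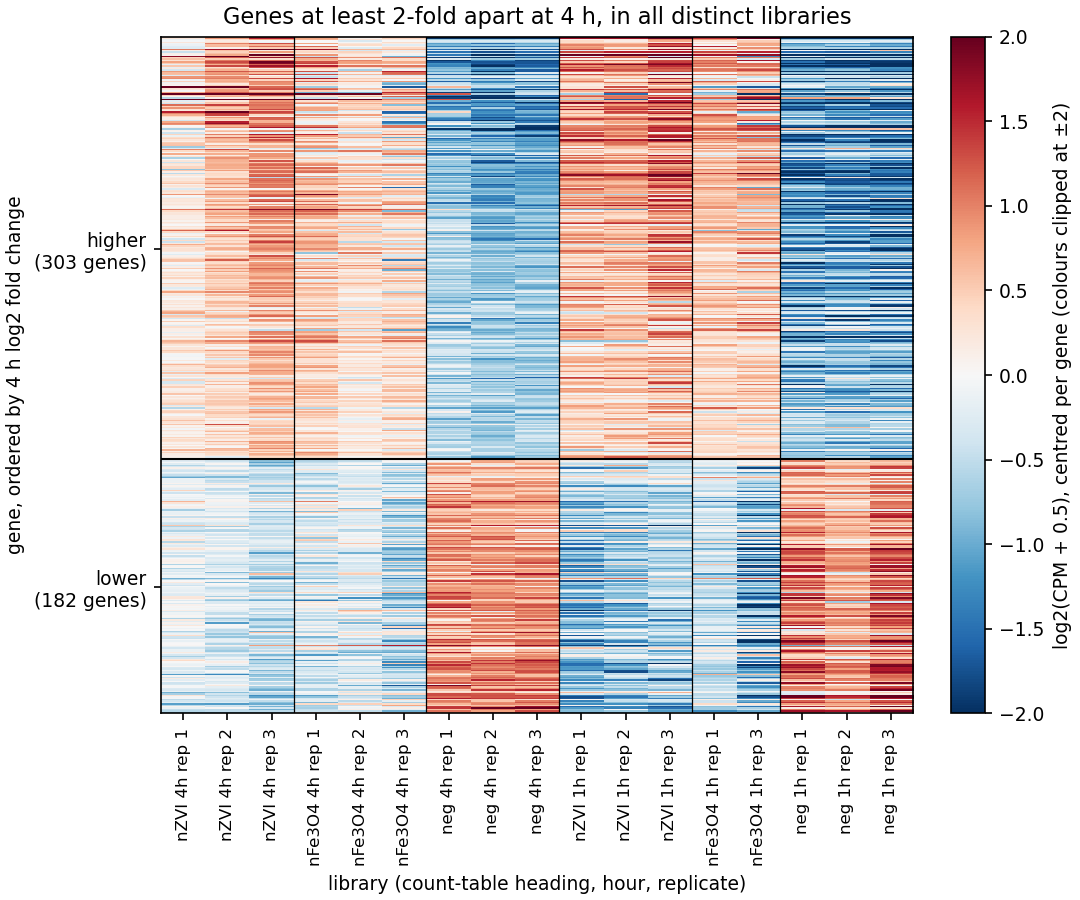
Log2(CPM + 0.5), centred per gene, of the 303 genes at least 2-fold higher and the 182 at least 2-fold lower in nZVI-headed than in neg-headed libraries of 4 h (rows, by fold change), in all 17 distinct libraries (columns). The genes were chosen on the nZVI 4 h and neg 4 h columns; in the 1 h columns the median of the 303 genes runs from 0.60 to 0.83 under nZVI and from -1.06 to -0.97 under neg.

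The replicates under nZVI were graded among themselves in these genes. For the 303 genes at least 2-fold higher, the median centred log2 value was 0.21, 0.51 and 0.79 in nZVI-headed replicates 1, 2 and 3. It was -0.61, -0.83 and -0.82 in neg-headed replicates 1, 2 and 3. For the 182 genes at least 2-fold lower, the medians were -0.13, -0.27 and -0.47 in the nZVI-headed libraries and 0.86, 0.85 and 0.91 in the neg-headed ones. In the nZVI-headed libraries replicate 3 thus lay furthest from the neg-headed ones and replicate 1 nearest, and among the neg-headed libraries replicate 1 lay nearest in the 303 genes. On the first principal component of the 9 libraries of 4 h, which held 44.0% of the variance, the nZVI-headed libraries stood at 4.32, 18.4 and 31.0 and the neg-headed libraries at -21.0, -36.7 and -32.6.

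The same contrast was taken in the libraries of 1 h, which gave no value to the 4 h fold changes but shared the estimate of spread with the 4 h test. With the 6 libraries of 4 h alone, edgeR called 2590 genes, of which 2034 were among the 2353. At 4 h 2353 genes were called, against 4892 at 1 h (41.3% of genes tested), with 2505 higher (21.2%) and 2387 lower (20.2%). Of the 1241 genes higher at 4 h, 950 were also higher at 1 h, which is 76.6% of the 4 h list and 37.9% of the 1 h list. Of the 1112 genes lower at 4 h, 754 were also lower at 1 h, or 67.8% of the 4 h list and 31.6% of the 1 h list. Only 15 genes higher at 4 h were called lower at 1 h, and 5 genes lower at 4 h were called higher at 1 h; all 20 also differed between the hours by the test of the difference. Among genes at least 2-fold apart at 4 h, 271 of 303 higher and 152 of 182 lower genes were called the same way at 1 h. Across all genes tested the 2 sets of log2 fold changes had Pearson's r of 0.715 and Spearman's rho of 0.668, a description over genes, which are not independent. The protocol describes repeated sampling of a culture, so libraries of a replicate number at both hours may come from the same flask, which the labels do not state. The main fit took all libraries as independent. The agreement between the hours, and the p-values for the difference between them given below, depend on that.

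The contrast was smaller at 4 h than at 1 h. The median absolute log2 fold change over all genes tested was 0.29 at 4 h and 0.42 at 1 h. The difference itself was called in 1098 genes (9.27% of genes tested), by edgeR's adjusted p. The fold change was higher at 4 h in 543 of them (4.59%) and lower in 555 (4.69%). Of the genes higher at 4 h, 196 had a lower fold change than at 1 h and 70 a higher one. Of those lower at 4 h, 85 had a log2 fold change less far below 0 than at 1 h, and 48 had a lower one than at 1 h. Among the 3168 genes called at 1 h and not at 4 h, the difference between the hours was called in 683. Of 629 genes called at 4 h and not at 1 h, it was called in 94, so for most of them a change confined to the later hour was not shown. Leaving out neg-headed 4 h replicate 1 gave 532 such differences, nZVI-headed 4 h replicate 1 gave 652, nZVI-headed 4 h replicate 2 gave 638 and neg-headed 1 h replicate 3 gave 633.

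RSUB_02179, higher at both hours, differed less at 4 h. It was named both on its 1 h values and among genes with a called difference between the hours. A smaller contrast at 4 h is thus partly expected from the choice. It had 175, 219 and 315 CPM in nZVI-headed libraries of 4 h, against 51.8, 46.6 and 35.3 CPM in neg-headed libraries of 4 h. At 1 h it had 560, 485 and 681 CPM in nZVI-headed libraries, against 39.9, 35.6 and 41.9 CPM in neg-headed libraries. The neg-headed means were 44.6 CPM at 4 h and 39.1 CPM at 1 h, while every nZVI-headed library of 4 h lay below every one of 1 h. Its log2 fold change was 2.41 at 4 h and 3.88 at 1 h, a difference of -1.47 (SE 0.27, adjusted p = 0.00409, edgeR), with adjusted p from 1.68e-05 to 0.0186 over 18 alternatives.

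Among genes called lower at 1 h, at least 2-fold apart and free of overlap, the 2 with the largest differences in CPM differed less at 4 h. They were chosen on their 1 h values, so a smaller contrast at 4 h is partly expected from the choice. RSUB_05089 averaged 1302 CPM ± 96.1 in nZVI-headed and 2122 CPM ± 186 in neg-headed libraries of 4 h, against 593 CPM ± 106 and 1830 CPM ± 230 at 1 h (SD, n = 3 each). The log2 fold change was -0.70 at 4 h and -1.63 at 1 h, and the difference was 0.92 (SE 0.19, adjusted p = 0.00942, edgeR). RSUB_04768 averaged 1816 CPM ± 287 in nZVI-headed and 2419 CPM ± 67.0 in neg-headed libraries of 4 h, against 785 CPM ± 122 and 1602 CPM ± 23.3 at 1 h (SD, n = 3 each). Its log2 fold change was -0.41 at 4 h and -1.03 at 1 h, and the difference was 0.62 (SE 0.17, adjusted p = 0.0373, edgeR). For RSUB_05089 and RSUB_04768 the difference between the hours was not tried under the alternatives. RSUB_11204 was called higher at 1 h, but not in edgeR's fit without neg-headed 1 h replicate 1 (adjusted p = 0.0709), 2 (0.105) or 3 (0.0913) or nZVI-headed 1 h replicate 3 (0.179), in a range of 0.00217 to 0.179 over 12 alternatives. At 4 h it had 1722, 2667 and 3145 CPM in nZVI-headed libraries, against 2276, 1226 and 1312 CPM in neg-headed libraries. Those groups overlapped, and its log2 fold change at 4 h was 0.65 (SE 0.59, adjusted p = 0.467, edgeR).

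In RSUB_11629 and RSUB_09307 the difference between the hours came with lower neg-headed means at 4 h than at 1 h. RSUB_11629, among the most counted genes, had 9663, 9945 and 9182 CPM in nZVI-headed libraries of 4 h, against 9406, 8292 and 9132 CPM in neg-headed libraries, and the groups overlapped. At 1 h the values were 9595, 8862 and 9350 CPM under nZVI, against 11605, 11906 and 10615 CPM under neg, all higher than under nZVI. The difference of log2 fold changes was 0.40 (SE 0.10, adjusted p = 0.0284, edgeR). RSUB_09307 averaged 2844 CPM ± 245 under nZVI and 2578 CPM ± 60.4 under neg at 4 h, against 2896 CPM ± 216 and 3903 CPM ± 95.9 at 1 h (SD, n = 3 each). The difference was 0.57 (SE 0.17, adjusted p = 0.0422, edgeR). Both calls sat near the threshold. In edgeR's fit, that of RSUB_11629 was lost without replicate 1 (adjusted p = 0.0615) or 2 (0.0744) of the nZVI-headed and replicate 2 (0.0759) of the neg-headed libraries of 4 h, and without replicate 2 (0.0579) of the nZVI-headed and 1 (0.0624) or 2 (0.0757) of the neg-headed libraries of 1 h. For RSUB_09307 it was lost without any single library except nZVI-headed 4 h replicate 3, with adjusted p of 0.057 to 0.101. Over 18 alternatives adjusted p ran from 0.0152 to 0.0759 for RSUB_11629 and from 0.00443 to 0.101 for RSUB_09307.

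For RSUB_11781 the contrast passed the test at 4 h (adjusted p = 0.0264, edgeR) and not at 1 h (0.0621). It had 1317, 1525 and 1268 CPM under nZVI at 4 h, all below the 1904, 1840 and 1614 CPM under neg. At 1 h the groups overlapped, with 2027, 1512 and 2063 CPM under nZVI and 1573, 1430 and 1623 CPM under neg. The log2 fold change was -0.38 at 4 h and 0.28 at 1 h, and the difference was -0.66 (SE 0.16, adjusted p = 0.019, edgeR). That call was lost in edgeR's fit without nZVI-headed 4 h replicate 1 (adjusted p = 0.0506), neg-headed 4 h replicate 1 (0.0634) or neg-headed 1 h replicate 2 (0.0509), in a range of 0.00458 to 0.0634 over 18 alternatives. With the names exchanged at both hours each of these differences between the hours changes sign, while the smaller contrast at 4 h holds under either reading.

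**Figure D4:**
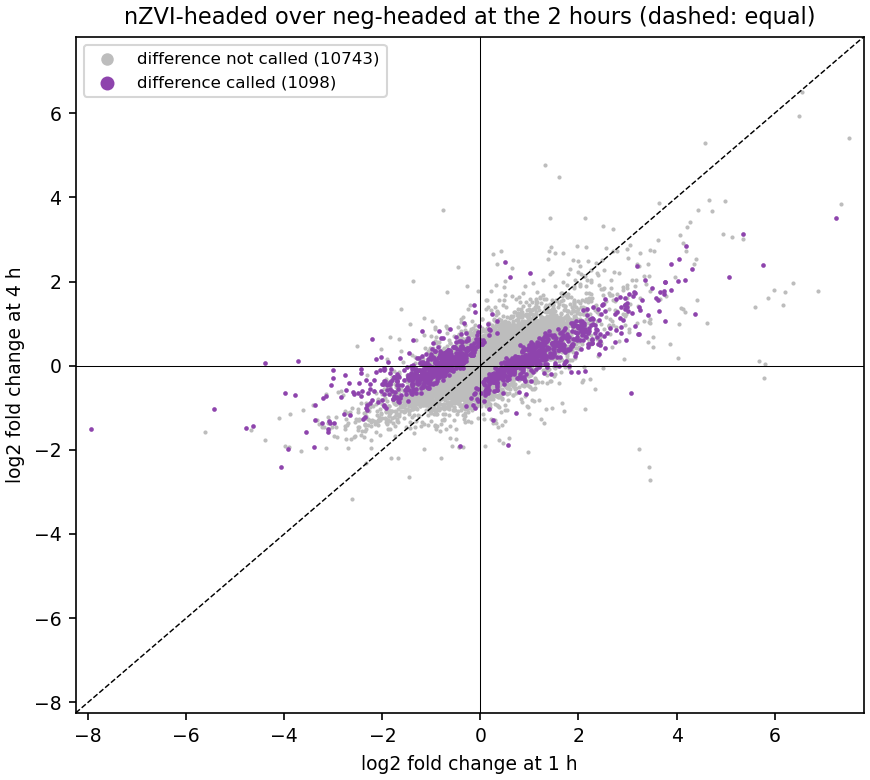
Log2 fold change of nZVI-headed over neg-headed libraries at 4 h (vertical axis) against the same at 1 h (horizontal axis), a point per gene tested. Purple points are the 1098 genes whose fold change differed between the hours by the test; most lie nearer to 0 on the 4 h axis than the dashed line of equal change.

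The authors' deposited table of nZVI against neg at 4 h listed 5645 genes with an adjusted p below 0.05, 2934 with a positive and 2711 with a negative log2 fold change. Of these, 5484 were among the genes tested here, and 5464 of them (99.6%) had the opposite sign in the authors' deposited table. All 2327 listed genes that were also called here ran the opposite way, and 26 called genes were not listed. Sizes were close once the sign was turned: the sum of the fold change here and that in the authors' deposited table had a median absolute value of 0.03 on the log2 scale. For the named genes the authors' deposited table gave -2.50 for RSUB_01551, -1.87 for RSUB_01221, 1.11 for RSUB_05036, 1.53 for RSUB_02577 and 1.99 for RSUB_12574. The deposited table thus reports, under its own names, the contrast of this comparison with the groups exchanged. Of the listed genes tested here, 42.4% were called here. For RSUB_01551 the authors' deposited table gave an adjusted p of 6.39e-10. By edgeR it was 0.0452 in the fit over all 17 libraries and 0.00252 in the fit on the 6 compared libraries alone, the lowest of its 13 alternatives, of which the highest was 0.285. DESeq2 on the 17 summed libraries gave an adjusted p of 0.0378 for this gene. It called 2585 genes at 4 h, against the 5645 listed. What sets these values apart from the deposited ones was not tested.

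**Figure D5:**
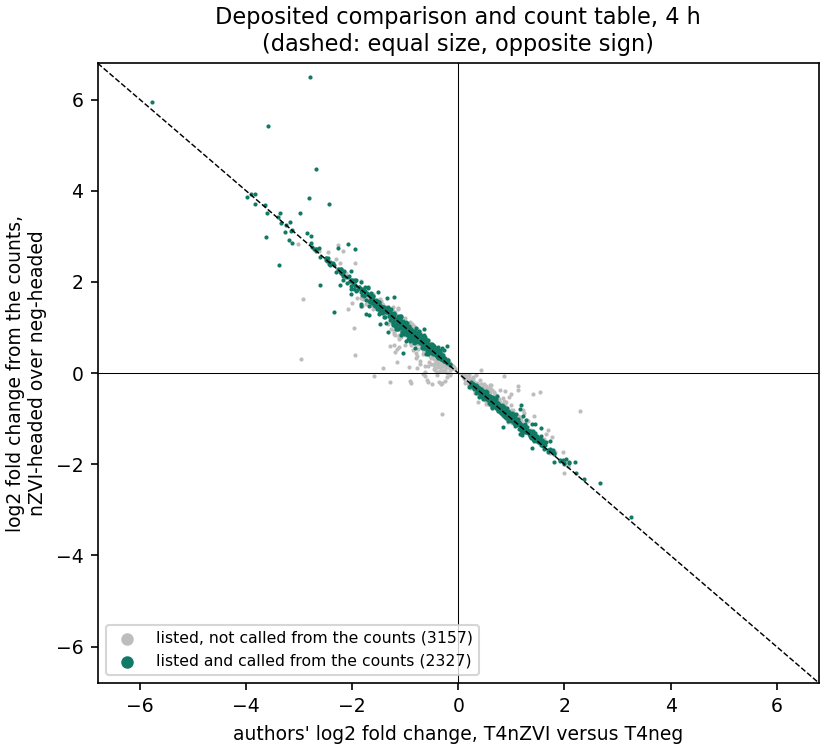
Log2 fold change from the counts, nZVI-headed over neg-headed (vertical axis), against the authors' deposited log2 fold change headed T4nZVI versus T4neg (horizontal axis), for the 5484 listed genes tested here. Green points are the 2327 also called from the counts; the points follow the dashed line of equal size and opposite sign.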

How the data were processed

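Gene counts, as whole numbers in 72 lane columns, were deposited by the authors. The submitters' processing notes name HISAT2, Trimmomatic, bcl2fastq, SAMtools, DESeq, DESeq2 and bedtools 2.27.1. Genome build, annotation and how reads were counted: not given in the sources used here. Of lane counts from 1 to 20, 63.5% were even. The authors also deposited regularized log2 values of 50 genes, centred per gene, and DESeq2 comparison tables with log2 fold changes and adjusted p-values of genes below 0.05, per the file headers.

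Lanes were summed to libraries: lanes of a library had 2.16 to 4.15 for chi-square over its degrees of freedom, and libraries of a group 10.5 to 37.5. Testing of counts used R 4.3.3 with limma 3.58.1 and edgeR 4.0.16, TMM scaling, a low-count filter that removed 340 of 12181 genes, and 6 group means over 17 libraries. Standard errors come from the test statistic. Alternatives included DESeq2 1.42.0. The test was checked on simulated counts, with a small set of genes changed by known folds at 4 h. Only genes above 1 CPM in neg-headed libraries of 4 h were changed, and every gene was given the spread usual at its level. The test recovered 22.4% of 1.5-fold, 68.7% of 2-fold and 100% of 4-fold changes. Of its calls, 1.55% were unchanged genes. Small changes were thus often missed in that setting, and a gene not called is not shown to be unchanged. In the real counts RSUB_07928 differed by -2.20 on the log2 scale, more than 4-fold, and was not called. The shares recovered and the share of unchanged genes therefore hold for the simulated setting only. The comparison and the rule for named genes were chosen with earlier results of these data known. The rule names, per comparison, the 2 genes in each direction with the largest difference in mean CPM among genes called, at least 2-fold apart and free of overlap; for the difference between hours, the largest difference of the CPM differences among genes called.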

Additional observations from a re-analysis of the deposited data

Results flagged for a closer look

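The contrast of nZVI-headed over neg-headed libraries differed between 4 h and 1 h in 1098 genes by the test of the difference itself. For the genes named by the rule, the difference on the log2 scale, 4 h minus 1 h, was 0.40 for RSUB_11629, 0.57 for RSUB_09307, -0.66 for RSUB_11781 and -1.47 for RSUB_02179. With the names exchanged at both hours each sign turns.

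The authors' deposited table of 4 h listed 158 genes that the count table does not hold. Their locus numbers all lie below 360, where the count table starts. They were not analysed here.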

How the results depend on the processing

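The number of genes called between nZVI-headed and neg-headed libraries at 4 h, 2353, stayed within 1.5 times under 10 of 13 alternatives; it was 1226 with lane 1 alone, 195 against a fold minimum of 1.5, and 1369 to 2273 with a library left out. None of the called genes changed sign under an alternative, apart from 3 with lane 1 alone. RLE size factors moved the median log2 fold change by -0.02. The 1 gene called against nFe3O4 was called under all 12 alternatives, with 27 genes by DESeq2 and 1 to 4 with a library left out. The 1 h count of 4892 stayed within 1.5 times under all 12. The 1098 differences between the hours were 387 with lane 1 alone and 532 to 1257 with a library left out. Lane 1 alone holds fewer counts; the cause of the other shifts was not tested.

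Replicate numbers were not taken to pair the cultures, since they are not stated to mark a shared batch or day. Same-numbered libraries of nZVI and neg at 4 h deviated from their group means with r of -0.437, -0.011 and -0.225. Deviations from a group mean cancel out within the group, so such values are tied to each other and cannot decide on pairing. Between 4 h and 1 h, r was 0.37, -0.039 and 0.541 under nZVI and 0.148, 0.061 and 0.00706 under neg, so replicates 1 and 3 under nZVI deviated alike at both hours. The fit with a replicate block called 2156, 1, 4686 and 864 genes in the comparisons with neg at 4 h, with nFe3O4, with neg at 1 h and between the hours. With the replicate block RSUB_11629 (adjusted p = 0.051) and RSUB_09307 (0.0532) lost their call between the hours in edgeR's fit, as RSUB_09307 did under 13 of its 18 alternatives, RSUB_11629 under 8 and RSUB_11781 under 3. The 1 h call of RSUB_11204 was lost under 4 of 12 alternatives. Depth limits genes under 1 CPM, where the median standard error was 0.55.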

Other observations

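Genes with consecutive locus numbers more often moved the same way than genes further apart in the numbering. Of 468 pairs with consecutive numbers in which both genes were called at 4 h, 287 (61.3%) had the same direction. At a gap of 2, 5, 20, 100 and 1000 in the locus number the share was 49%, 50.7%, 49.5%, 49.2% and 51.5%. The longest run of consecutive numbers called higher held 5 genes and the longest called lower 4. Whether consecutive numbers are neighbours in the genome, and whether reads were counted by strand, is not given in the sources used here, and the pairs share genes, so this is a description with no test. The shares are the same under either reading of the names.

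Of the 50 genes of the authors' regularized log table, 49 were tested and 33 were called at 4 h, 21 higher and 12 lower under the nZVI heading. Per its title the authors chose those genes for the highest variance across samples, these included, so the count is no independent support.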
